A study of Mus musculus with 24 samples.

Results

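Tumour and normal pancreatic organoids were compared in polysome-associated mRNA while both were exposed to CR-31, which asks which differences in the mRNAs held on ribosomes exist in the presence of an inhibitor of the helicase eIF4A. The comparison used 6 of the 24 libraries of the series, those labelled as polysome-associated mRNA with treatment CR1-31-b: 3 of normal (N) and 3 of tumour (KP) organoids. N organoids were grown from ductal isolates of wild-type C57Bl/6J mice, and KP organoids from pancreatic tumours of mice whose alleles include Trp53 +/LSL-R172H and the transgene Pdx1-Cre, in which Cre under the Pdx1 promoter recombines floxed alleles in the pancreatic lineage. All 6 cultures were kept without EGF and N-acetylcysteine, received CR-31 (the active enantiomer of the rocaglate CR-1-31-B) at 10 nM for 1 h before lysis, as the methods state, and had cycloheximide added in the last minutes to hold ribosomes in place. Gradient fractions with at least 3 ribosomes per message were pooled, and their mRNA was sequenced. Neither the labels nor the methods say whether the replicates of a type came from separate animals, so the p-values below measure the spread between these libraries, which may be technical.

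As background, eIF4A is the RNA helicase of the cap-binding complex eIF4F. It unwinds structure in the 5′ leader so that the small ribosomal subunit can scan to the start codon. Rocaglates have been reported to clamp it onto purine-rich RNA and so block initiation. The study of these organoids found no excess of such sequences in leaders of mRNAs suppressed by CR-31. It concluded that clamping does not explain the whole effect of the drug. mRNAs on several ribosomes are being translated, so their abundance joins mRNA level and ribosome loading. Pancreatic duct cells secrete bicarbonate-rich fluid, and the tumours that arise in this organ are known for their proliferation and changed metabolism.

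The 6 libraries held 47308461 (N replicate 3) to 267463046 (N replicate 2) gene counts, and 11438 genes with a single symbol and a count in all 24 libraries were tested. Across these genes log2 CPM (counts relative to the library total after scaling by edgeR's TMM factors) were correlated within KP at r = 0.974 to 0.979, within N at 0.940 to 0.957 and between the types at 0.899 to 0.952. No sequencing lane held both types, so lane and type cannot be told apart. Of the duct epithelium markers, all 22 were tested, and Krt18 stood at a deposited RPKM of 1793 ± 303 (SD, n = 3) in N and 1339.7 ± 164 in KP. Summed RPKM over 22 acinar markers was 3.96 to 4.36 in N and 3.85 to 4.83 in KP, with Cpa1, Ptf1a and 9 others at 0 in all 6 libraries, and over 16 fibroblast and stellate markers it stayed under 0.5, with Col3a1 and Dcn at 0. Over 17 immune markers the sum was 9.46 to 20.99 in N against 2.11 to 3.05 in KP, carried by Cd68, Cd52 and Csf1r, while the pan-leukocyte marker Ptprc was at 0.00825 in N and the macrophage marker Adgre1 at 0. Over 12 endothelial markers it was 21.4 to 32.7 in N and 30.8 to 45.9 in KP, mostly Egfl7, which was called higher in KP (log2 fold change 1.05, adjusted p = 0.0763), and Sox17, while Pecam1 and Cdh5 were under 0.02 in every library. Endocrine hormones Ins1, Ins2 and Gcg were at 0 in all 6 libraries.

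The labels of N replicate 3 need a caution that touches every result here. In the other N cultures the difference between CR-31 and vehicle was correlated across genes between polysome-associated and total mRNA, with r = 0.601 in N replicate 1 and 0.309 in N replicate 2. In N replicate 3 the same correlation was -0.805. Its polysome library labelled CR-31 resembled its total library labelled vehicle (r = 0.989) more than its total library labelled CR-31 (r = 0.964), so the 4 libraries of this culture paired across their treatment labels, and the files do not tell which of these labels, if any, is wrong. A result given without N replicate 3 leaves out the libraries of that culture that enter the comparison. KP replicate 1 also had a negative correlation (-0.367), with its total CR-31 library apart from its other 3. All libraries were kept under their labels, and the total counts and those of the gene lists are also given without N replicate 3.

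With CR-31 present, KP and N organoids differed widely in the mRNAs on polysomes. At an adjusted p under 0.25 in edgeR's quasi-likelihood test, 3013 of the 11438 genes (26.3%) were called: 1326 (11.6%) were higher in KP and 1687 (14.7%) were lower. At an adjusted p under 0.05 the count was 573 (5.01%), with 205 higher and 368 lower. The median log2 fold change over all genes was -0.019 and its median size 0.38, and 1707 called genes differed by more than 1 on the log2 scale. In 3312 genes (29%) the 3 values of one type did not overlap the 3 of the other. The number of calls rested on single libraries: it was 3560 without N replicate 3 (14.4% of genes higher and 16.7% lower), 915 without KP replicate 1 and 1810 without KP replicate 3, and 338 of the 1326 and 535 of the 1687 remained called in every fit without 1 library.

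Agr2, Gcnt3, Krt4 and Gstt2 were among the 15 genes with the largest rise in KP at an adjusted p under 0.05. Agr2, a disulfide isomerase of the endoplasmic reticulum needed for mucin folding, had 0.627, 0.0846 and 0.261 CPM in N replicates 1, 2 and 3 and 137, 40.3 and 62.8 CPM in KP. Every KP library was far above every N library, and the log2 fold change was 8.0 ± 0.86 (SE; adjusted p = 0.0100). Gcnt3, which builds the branched cores of mucin glycans, stood at 22.6, 1.60 and 2.84 CPM in N and 183, 133 and 230.4 in KP (log2 fold change 4.33 ± 0.94, adjusted p = 0.0405). The keratin Krt4 of mucosal epithelia had 1.76, 1.18 and 4.51 CPM in N and 134, 115 and 15.9 in KP, with KP replicate 3 well below the other KP libraries but still above N. Its log2 fold change was 5.19, and 5.91 without N replicate 3. In the list of gastric mucin and trefoil genes, 3 of 16 were called higher and 2 lower: Spdef, a goblet-cell transcription factor (4.49, adjusted p = 0.0570), and the trefoil factor Tff3 (2.24, 0.136) were higher besides Agr2, and lower were the aspartic protease Ctse (-4.32, 0.0340) and Foxq1 (-0.84, 0.141). The list's median was 0.62, and these counts lay near the 11.6% and 14.7% of all genes. They were 3 higher and 3 lower without N replicate 3.

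**Figure D1:**
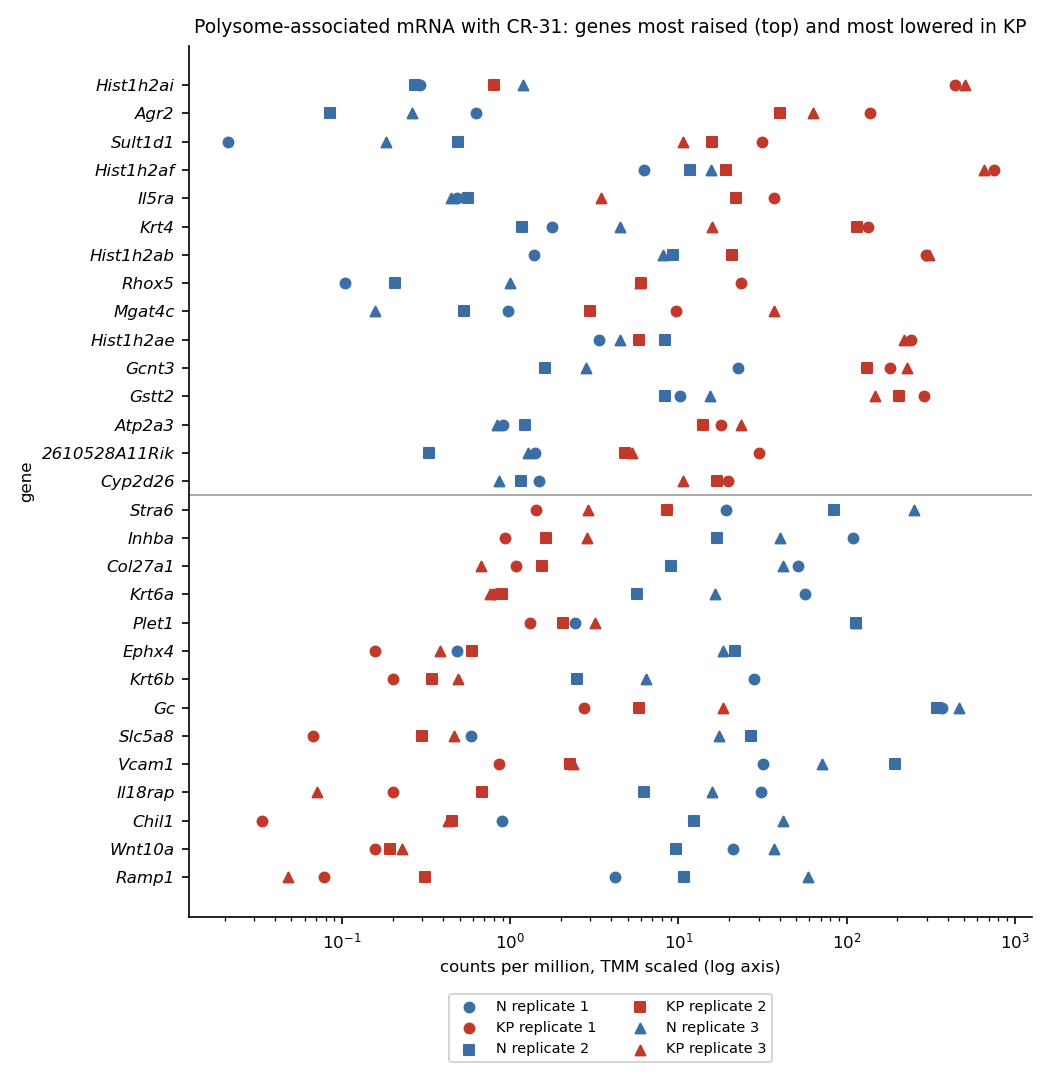
TMM-scaled CPM (log axis) of the genes with the largest positive and the largest negative log2 fold changes at an adjusted p under 0.05 and a mean of at least 5 CPM; each point is 1 library, blue for N and red for KP, with the marker giving the replicate. In Gstt2, Agr2 and Wnt10a the types stand apart in every library, whereas in the 4 histone genes KP replicate 2 lies near the N libraries.

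Gstt2, a theta-class glutathione transferase, had 10.2, 8.37 and 15.4 CPM in N and 287, 206 and 147 CPM in KP, a log2 fold change of 4.24 ± 0.36 (SE; adjusted p = 0.00635). The sulfotransferase Sult1d1 (0.0209, 0.487 and 0.182 CPM in N, 31.4, 15.9 and 10.6 in KP) and the cytochrome P450 Cyp2d26 (1.48, 1.16 and 0.860 in N, 19.7, 17.01 and 10.6 in KP) also did not overlap between types. Atp2a3, a calcium pump of the endoplasmic reticulum, had 0.908, 1.22 and 0.834 CPM in N and 17.9, 13.99 and 23.4 in KP, and its log2 fold change was 4.21 ± 0.36 (SE; adjusted p = 0.00635). Further genes among the 15, given by their log2 fold changes, were Il5ra (the interleukin-5 receptor alpha chain, 5.38), the homeobox gene Rhox5 (4.88, and 6.19 without N replicate 3), the glycosyltransferase-family gene Mgat4c (4.86) and 2610528A11Rik (3.76).

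The remaining 4 of the 15 were replication-dependent histones, Hist1h2ai, Hist1h2af, Hist1h2ab and Hist1h2ae, and these were uneven within KP. Hist1h2ai had 0.292, 0.270 and 1.20 CPM in N and 442, 0.805 and 505 in KP: replicate 2 lay inside the range of N, and replicates 1 and 3 were far above it. Its log2 fold change was 9.24, and 10.14 without N replicate 3. Hist1h2ae showed the same split, with 242, 5.80 and 220.0 CPM in KP against 3.35, 8.36 and 4.51 in N. These genes are near-identical copies, and reads that matched several places were discarded by the authors, so their levels are uncertain, and their high values stood in 2 of the 3 KP libraries.

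Wnt10a, Inhba, Gc and Vcam1 were among the 15 genes with the largest fall in KP. Wnt10a, a WNT ligand, had 21.1, 9.72 and 36.8 CPM in N and 0.157, 0.193 and 0.226 CPM in KP, and its log2 fold change was -6.87 ± 0.60 (SE; adjusted p = 0.00635). All 3 KP libraries were under 1 CPM and all N libraries were above 9. Inhba, the beta-A subunit of activin, fell from 109, 16.9 and 40 CPM in N to 0.928, 1.64 and 2.88 in KP (log2 fold change -4.93 ± 0.75, adjusted p = 0.0189). Among carriers, Gc (vitamin D-binding protein) had 371, 344 and 466 CPM in N and 2.74, 5.84 and 18.4 in KP. Stra6, the membrane receptor for retinol-binding protein, had 19.3, 84.4 and 251 CPM in N and 1.42, 8.58 and 2.91 in KP and was highest in N replicate 3. Its log2 fold change was -4.78 with all libraries and -3.61 without N replicate 3, called both times.

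The adhesion molecule Vcam1 had 31.7, 194 and 71.7 CPM in N and 0.861, 2.26 and 2.35 in KP, a log2 fold change of -5.76 ± 0.75 (SE; adjusted p = 0.0143). The wound-type keratins Krt6a (56.9, 5.64 and 16.5 CPM in N) and Krt6b (28.3, 2.48 and 6.44 CPM in N) were under 1 CPM in every KP library and highest in N replicate 1. Col27a1, a fibrillar collagen, had 51.2, 9.04 and 41.6 CPM in N and 1.09, 1.53 and 0.666 in KP. N replicate 1 stood apart from the other N libraries in Plet1, a surface protein of progenitor cells (2.41, 114 and 114 CPM), the transporter Slc5a8 (0.585, 27.1 and 17.4), the hydrolase Ephx4 (0.480, 21.8 and 18.5) and the chitinase-like Chil1 (0.898, 12.4 and 41.9). In Plet1 and Ephx4 it lay inside the range of KP. Ramp1, a partner of the calcitonin receptor-like receptor (-7.38), and the interleukin-18 receptor chain Il18rap (-5.79) also fell, given by their log2 fold changes. Without N replicate 3 that of Ramp1 was -5.68, and that of Chil1 went from -5.91 to -4.46.

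Some genes outside the tested set had no count in the 3 CR-31 polysome libraries of one type. Each of the 3 CR-31 polysome libraries of the other type held more than 3 counts of them. Such genes were not always absent with vehicle. Over the vehicle polysome libraries Rnf150 had 20 counts in KP and Pnliprp2 6 in N, while Uts2b and Upk3a had 0. Of the 28 without a count in KP, the RING-finger gene Rnf150 had 1.29, 11.1 and 0.0846 CPM in N, so that replicate 2 made up most of the mean of 4.16 ± 6.05 CPM (SD, n = 3) in N, at least 138-fold higher than a floor of 3 counts per KP library. Uts2b (2.62 CPM), Chsy3 (2.53), Cacna2d1 (2.45) and Cyp21a1 (0.992) followed. In the other direction 8 genes had no count in N, with the highest means in the lipase-related Pnliprp2 (1.25 ± 0.958 CPM in KP, at least 35.7-fold higher), the uroplakin Upk3a (0.271) and Insc (0.213), Trim31 (0.155) and Npy4r (0.150). These bounds cover counting error only. The 28 and the 8 are out of 18719 genes with a single symbol, and both depend on depth. N replicate 2 held 267463046 counts, against 97697844 to 101445202 in the KP libraries, so the 28 and the 8 cannot be set against each other.

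Genes of the cell cycle were higher in KP as a group. In the list of DNA replication genes, 35 of 40 were called higher and 0 lower, with a median log2 fold change of 1.27, against 11.6% of all genes called higher and a median of -0.019. In the list of mitosis genes, 38 of 40 were called higher and 0 lower, with a median of 1.38. Without N replicate 3 the counts were 34 and 37, with medians of 1.06 and 1.11, and 20 and 17 genes remained called whichever library was left out. E2f2, a transcription factor that drives entry into S phase, had 1.36, 1.61 and 1.09 CPM in N and 14.4, 8.78 and 12.8 CPM in KP, and its log2 fold change was 3.14 ± 0.37 (SE; adjusted p = 0.0118). Rrm2, the small subunit of ribonucleotide reductase, had 27.98, 17.9 and 12.8 CPM in N and 142, 50.3 and 81.0 in KP (2.22 ± 0.43, adjusted p = 0.0294), and the replication initiator Mcm10 5.95, 4.31 and 2.92 and 20.4, 11.2 and 17.8 (1.90, adjusted p = 0.0320). In all 3 genes KP replicate 2 was the lowest tumour library. Of the mitotic genes, cyclin B1 (Ccnb1) had 40.8, 47.97 and 18.6 CPM in N and 177, 77.2 and 132 in KP (1.84, 0.0429), the kinase gene Aurkb 18.3, 18.8 and 10.2 and 70.8, 40.5 and 58.4 (1.84, 0.0225), and the phosphatase gene Cdc25c 5.94, 6.74 and 2.94 and 26.8, 10 and 18.1 (1.81, 0.0577).

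The promoters of these lists were also read for known cell-cycle letters, over all members with a promoter, called or not. Why the lists moved was not tested. RefSeq promoters (GRCm38.p6, 250 bases before to 50 after a start site) were found for 34 of the 40 DNA replication genes and 34 of the 40 mitosis genes, and searched on both strands. The E2F-type letters TTTNNCGC occurred in 41% of the 39 DNA replication promoters and 10.8% of the 37 mitosis promoters, against 5.17% of all 32851 promoters and 8.09% of those of tested genes. The letters TTTGAA, known as the cell cycle homology region of late cell-cycle genes, occurred in 73.0% of the mitosis promoters and 12.8% of the DNA replication promoters, against 17.9% of all and 11.9% of tested genes' promoters. A match is a description of the letters and not evidence of binding. The promoters of E2f2 (chr4:136172024-136172323, plus strand) and of the replicative helicase gene Mcm3 (chr1:20820263-20820562, minus strand) each hold 2 matches to TTTNNCGC, written in capitals below, 5′ to 3′ on the gene's strand.
E2f2: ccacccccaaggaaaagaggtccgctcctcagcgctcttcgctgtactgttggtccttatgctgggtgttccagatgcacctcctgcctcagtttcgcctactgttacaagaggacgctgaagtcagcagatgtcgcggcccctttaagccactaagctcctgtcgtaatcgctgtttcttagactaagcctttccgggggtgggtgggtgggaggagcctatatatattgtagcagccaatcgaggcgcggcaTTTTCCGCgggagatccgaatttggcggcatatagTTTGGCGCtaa
Mcm3: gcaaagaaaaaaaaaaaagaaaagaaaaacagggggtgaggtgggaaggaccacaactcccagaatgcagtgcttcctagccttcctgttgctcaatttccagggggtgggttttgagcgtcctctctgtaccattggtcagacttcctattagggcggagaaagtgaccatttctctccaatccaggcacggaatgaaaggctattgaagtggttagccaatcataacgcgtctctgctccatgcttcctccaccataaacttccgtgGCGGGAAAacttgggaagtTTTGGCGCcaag

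**Figure D2:**
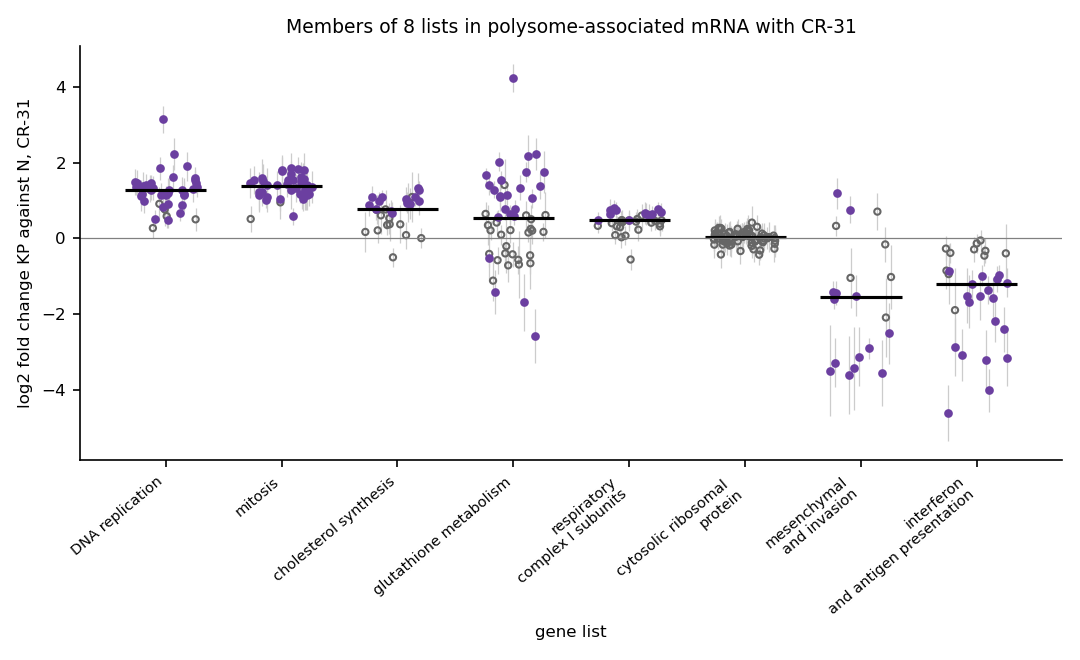
log2 fold change of KP against N with CR-31 for each tested member of 8 lists, with its standard error in grey; filled points passed an adjusted p under 0.25, open points did not, and the bar is the list's median. DNA replication and mitosis genes lie above 0, interferon and antigen presentation genes below it, and ribosomal protein genes around it.

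Interferon-stimulated and antigen presentation genes were lower in KP. Of 30 genes tested in this list, 19 were called lower and 0 higher, none had a positive log2 fold change, and the median was -1.20, where 14.7% of all genes were called lower. Without N replicate 3, 17 were called and the median was -0.96, and 9 of the 19 calls remained whichever library was left out. The list stood highest in N replicate 3 within N, 1.01 above the mean of the 6 libraries on the log2 scale against -0.11 in N replicate 1. The class II invariant chain Cd74 had 3.45, 14.8 and 22.7 CPM in N and 0.280, 0.612 and 0.773 CPM in KP, and its log2 fold change was -4.62 ± 0.75 (SE; adjusted p = 0.0219). Ifit3, an antiviral protein that binds viral RNA complexes, had 3.07, 7.30 and 10.7 CPM in N and 0.324, 0.408 and 0.559 in KP (-4.02 ± 0.57, adjusted p = 0.0172), and Rsad2, the antiviral enzyme viperin, 0.501, 1.15 and 3.62 and 0.235, 0.129 and 0.190 (-3.23, adjusted p = 0.0553, and -2.17 without N replicate 3). The types did not overlap in any of the 3, and N replicate 3, the library whose label is in doubt, was the highest in each. The immune markers Csf1r, the receptor for colony-stimulating factor 1 (11.99, 9.97 and 14.6 CPM in N, 0.671, 0.923 and 1.25 in KP; log2 fold change -3.68, adjusted p = 0.0100), and Cd68 (-1.71, 0.0731) moved the same way, with Ptprc and Adgre1 near or at 0 as given above. Fewer cells of a type and less RNA per cell cannot be told apart in such bulk samples.

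The core of the interferon-stimulated response element, searched as GAAA, any 2 bases and GAAA, was found on either strand in 42.9% of 28 promoters of 24 list members, against 3.44% of all promoters and 2.93% of those of tested genes. Of the 15 members called lower that had a promoter in the table, 9 held it: B2m, Bst2, Cxcl10, Gbp2, H2-T23, Ifit1, Ifit3, Isg15 and Rsad2. The promoters of Ifit3 (chr19:34583279-34583578, plus strand) and Rsad2 (chr12:26456403-26456702, minus strand) are shown since both genes were at or under 0.559 CPM in every KP library. Capitals mark the matches.
Ifit3: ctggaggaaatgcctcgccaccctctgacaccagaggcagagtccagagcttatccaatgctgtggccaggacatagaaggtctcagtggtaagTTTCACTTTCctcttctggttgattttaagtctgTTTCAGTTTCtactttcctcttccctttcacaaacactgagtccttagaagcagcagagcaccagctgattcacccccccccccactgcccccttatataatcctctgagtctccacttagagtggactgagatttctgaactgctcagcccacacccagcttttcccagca
Rsad2: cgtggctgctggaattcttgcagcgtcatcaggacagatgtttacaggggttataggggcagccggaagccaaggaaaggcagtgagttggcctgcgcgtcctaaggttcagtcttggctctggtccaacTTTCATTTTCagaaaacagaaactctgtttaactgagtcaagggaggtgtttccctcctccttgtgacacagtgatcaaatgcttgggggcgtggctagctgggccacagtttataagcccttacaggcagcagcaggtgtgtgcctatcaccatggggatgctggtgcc

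Matrix, integrin and mesenchymal genes were also lower in KP. Of 20 tested, where 14.7% of all genes were called lower and 11.6% higher, 12 were called lower and 2 higher, with a median of -1.57 (2 higher and 13 lower, median -1.81, without N replicate 3). Here 8 of the 14 calls remained in every fit without 1 library. Fibronectin (Fn1) had 737, 458 and 164 CPM in N and 7.67, 24.2 and 83.8 in KP, so the lowest N library stood above the highest KP library, and the log2 fold change was -3.55 ± 0.87 (SE; adjusted p = 0.0558). The transcription factor Twist1 (5.26, 3.74 and 0.573 CPM in N, 0.0895, 0.0858 and 0.606 in KP) and N-cadherin Cdh2 (5.95, 0.185 and 0.756 and 0.224, 0.0751 and 0.309) were low in all libraries and overlapped between types, Twist1 at -3.62 (adjusted p = 0.0805) and Cdh2 at -3.50 (0.125). The 2 members called higher were the galectin Lgals1 (1.18, adjusted p = 0.122) and the calcium-binding S100a6 (0.75, 0.240). Among 22 duct epithelium markers, 6 were called lower and 1 higher, and 10 and 1 without N replicate 3, when 16.7% of all genes were called lower. Of the 7 duct calls, 4 remained whichever library was left out. The bicarbonate cotransporter Slc4a4 fell from 191, 254 and 128 CPM in N to 23.9, 64.8 and 39.2 in KP (-2.17 ± 0.40, adjusted p = 0.0269), osteopontin Spp1 had a log2 fold change of -1.55 (adjusted p = 0.0516), the transcription factor Onecut2 -1.51 (0.0245), and Pdx1, the pancreatic transcription factor whose promoter drives the Cre, 0.85 (0.0795).

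Trp53 had 129, 86.5 and 101 CPM in N and 106, 119 and 151 in KP (log2 fold change 0.25 ± 0.24, adjusted p = 0.583) and Myc 206, 67.5 and 60.4 and 133, 198 and 146 (0.51 ± 0.46, 0.553), and neither passed the test. The counts do not separate mutant from wild-type Trp53 transcripts. Cdkn2a, the INK4A and ARF locus, was higher in KP, with 91.3, 53.2 and 122 CPM in N and 240.2, 199.7 and 228 in KP (1.32 ± 0.31, adjusted p = 0.0477). In the EGF family, the receptor gene Egfr had 262, 72.2 and 68.5 CPM in N and 19.3, 25.4 and 24.3 in KP (-2.54 ± 0.52, 0.0351), while its ligand Tgfa had 82.7, 56.2 and 70.2 and 201, 195 and 149 (1.38 ± 0.23, 0.0225). Both genes separated the types in every library, in opposite directions, and the leucine-rich repeat protein gene Lrig3 was at 1.60 (0.225, and not called at 0.318 without N replicate 3).

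Among 26 MAPK feedback and output genes, 7 were called higher and 3 lower, with a median of 0.32; without N replicate 3 there were 5 and 4, with a median of 0.091. Of the 10 calls, 2 remained whichever library was left out. N replicate 1 stood apart, with a median level of 0.42 relative to the 6-library mean (log2), above KP replicates 1 (-0.067) and 3 (0.19), while N replicates 2 and 3 were at -0.69 and -0.47. The higher ones included the feedback inhibitors Spry2 (92.2, 33.4 and 29.1 CPM in N, 139, 120.4 and 145 in KP; 1.38, adjusted p = 0.0937) and Spry4 (1.78, 0.185, and 0.301 without N replicate 3), and the lower ones Dusp7, an ERK phosphatase (-1.43, 0.0831), the early gene Ier3 (-1.19, 0.0612) and the ephrin receptor Epha4 (-1.10, 0.0779). Of 26 p53 targets, 5 were called higher and 5 lower (5 higher and 6 lower without N replicate 3, with 3 of the 10 calls left in every fit without 1 library), where 11.6% and 14.7% of all genes were called. The stress cytokine Gdf15 had 58.1, 27 and 42.6 CPM in N and 155, 114 and 146 in KP (1.70 ± 0.30, 0.0243) and cyclin D2 (Ccnd2) 928, 325 and 309 and 1426, 1626 and 1334 (1.49, 0.0820). On the other side stood the pro-apoptotic Pmaip1 (235, 259 and 199 CPM in N, 62.1, 85.5 and 56.1 in KP; -1.77, 0.0148) and the death receptor Fas (-1.93, 0.107). Of 16 WNT targets and regulators, 6 were called lower (4 without N replicate 3), among them the feedback inhibitor Nkd1 (-2.63, 0.0560), and 3 higher in either case, among them Apcdd1 (2.90, 0.0679) and the receptor Tnfrsf19 (1.68, 0.102). In every fit without 1 library, 3 of the 9 WNT calls remained. Nkd1, Apcdd1, Notum and Ascl2 were near or under 1 CPM in both types.

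Glutathione, the main thiol antioxidant of the cell, is made by Gclc, Gclm and Gss and used by transferases and peroxidases. Of 50 glutathione metabolism genes, 21 were called higher and 4 lower, with a median of 0.53 (23 higher and 3 lower without N replicate 3, and 14 of the 25 calls left in every fit without 1 library), where 11.6% of all genes were called higher and 14.7% lower. Besides Gstt2, Gsta1 had 124, 26.2 and 56.0 CPM in N and 440.4, 314 and 185 in KP (2.19, adjusted p = 0.0598), and the 4 lower genes were the peroxidases Gpx8 (-2.59, 0.0719) and Gpx3 (-1.69, 0.222, and 0.401 without N replicate 3), Mgst2 (-1.43, 0.189) and Rrm2b (-0.52, 0.237). Gsta1 has close paralogs, so its level is uncertain for the same reason as that of the histones. Glutathione synthetase (Gss) had 107, 86.4 and 102 CPM in N and 154, 153 and 129 in KP, without overlap (0.56 ± 0.20, 0.135). Its partners in the pathway did not pass the test, Gclc at 0.61 ± 0.62, Gclm at 0.41 ± 0.31 and the reductase Gsr at 0.64 ± 0.31. Nfe2l2, which encodes the antioxidant regulator NRF2, had 283, 301 and 292 CPM in N and 381, 230.0 and 398 in KP (0.20 ± 0.25, 0.682). Of 37 NRF2 target and redox genes 12 were called higher and 0 lower (14 higher and 0 lower without N replicate 3), among them Aldh3a1 (1.63), Osgin1 (1.20) and Cbr3 (1.17, and 1.95 without that library); Nqo1 (1.39 ± 0.84) and Hmox1 (0.41 ± 0.39) did not pass. Only 1 of those 12 remained called whichever library was left out.

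Cholesterol synthesis genes were called higher in 14 of 28 and lower in 0, with a median of 0.77 (12 higher and 0 lower, median 0.60, without N replicate 3). Of the 14 called with all libraries, 6 remained called whichever library was left out. Phosphomevalonate kinase (Pmvk) had 47.8, 32.3 and 44.6 CPM in N and 117, 86.5 and 98.5 in KP (1.28 ± 0.23, adjusted p = 0.0246), Acat2, which makes acetoacetyl-CoA, 169, 129.8 and 118 and 368, 249 and 277 (1.10, 0.0446), and the desaturase Scd1 177, 73.6 and 65.9 and 281, 244 and 276 (1.34, 0.0781). Each separated the types, and the list's median level was 0.26 in N replicate 1 relative to the 6-library mean (log2), against -0.79 and -0.72 in the other N libraries. Where 11.6% of all genes were called higher and 14.7% lower, glycolysis genes gave 8 higher and 3 lower of 27, and 8 and 2 without N replicate 3, with medians of 0.23 and 0.56. Of the 11 calls, 1 remained whichever library was left out. Aldoc rose (51.4, 74.0 and 74.9 CPM in N, 138, 165 and 105 in KP; 1.03, 0.0548), Ldhb fell (7.76, 16.9 and 21.3 and 2.51, 3.23 and 7.23; -1.83, 0.0781), and Gapdh (0.47 ± 0.32, but called at 0.84 without N replicate 3) and the glucose transporter Slc2a1 (0.10 ± 0.33) did not pass. Glutamine and amino acid genes gave 8 higher and 2 lower of 28 (7 higher and 4 lower without N replicate 3). A total of 4 of the 10 calls remained in every fit without 1 library. Gpt, alanine transaminase, had 2.11, 2.86 and 2.55 CPM in N and 13.2, 11.7 and 16.1 in KP (2.45 ± 0.31, 0.0141), and glutamine synthetase (Glul) 16.9, 78.6 and 33.4 and 13.4, 15.8 and 8.08 (-1.79, 0.0852). The glutamine transporter Slc1a5 was called higher (1.08, 0.196), but N replicate 1 lay above KP replicate 1 (123, 31.2 and 70.6 CPM in N, 116, 204 and 155 in KP) and the call was lost without N replicate 3 (adjusted p = 0.286). The median level of the glutamine and amino acid list in N replicate 1 (0.40 relative to the 6-library mean, log2) was above every KP library, the highest of which was at 0.36, and N replicates 2 and 3 were at -0.98 and -0.44.

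Subunits of the respiratory chain rose in KP in part. Complex I, which takes electrons from NADH, gave 12 of 33 higher and 0 lower (median 0.47), complexes II to V 19 of 38 and 0 (median 0.54), and mitochondrial ribosomal proteins 20 of 69 and 0 (median 0.41), where 11.6% of all genes were called higher. Cytochrome c1 (Cyc1) had 135, 109 and 180.5 CPM in N and 302, 301 and 295 in KP (1.08 ± 0.24, adjusted p = 0.0423), the ATP synthase beta subunit Atp5b 703, 719 and 632 and 1167, 1190.3 and 1309 (0.84, 0.0572) and the complex I subunit Ndufa9 51.4, 55.0 and 54.4 and 96.8, 87.6 and 89.8 (0.77, 0.0477). In these genes the types did not overlap. The counts without N replicate 3 were 28, 29 and 52, with medians of 0.65, 0.67 and 0.60, when 14.4% of all genes were called higher. Whichever library was left out, 2 of the 12, 3 of the 19 and 3 of the 20 remained called. Cytosolic ribosomal protein genes gave 0 of 70 in either direction and a median of 0.030 with all libraries, and 14 higher, 0 lower and a median of 0.33 without N replicate 3; within N their median level ran from -0.54 in replicate 1 to 0.48 in replicate 3, relative to the 6-library mean. The median of this list changed sign with the scaling, to -0.029 under upper-quartile scaling, and with the library left out, to -0.19 without N replicate 1.

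mRNA length moved with these values. Length relative to the median gene, taken from the ratio of deposited counts to RPKM, had a median of 0.235 in complex I, 0.2503 in complexes II to V, 0.371 in mitochondrial and 0.254 in cytosolic ribosomal proteins, and 0.479 in glutathione metabolism. In the shortest of 4 equal groups of tested genes by mRNA length the median log2 fold change was 0.12, with 501 called higher and 300 lower, and in the longest group it was -0.15, with 190 higher and 532 lower. Without N replicate 3 the medians were 0.26 and -0.29. Within N, the correlation across genes of length with a library's deviation from the mean of the 6 (Spearman, a description) was 0.431 in replicate 1 and -0.291 in replicate 3. The part of length in the differences between types was not tested.

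Initiation factors were called higher at a share near the 11.6% of all genes. Of 44 initiation factor genes, 5 were called higher and 1 lower, with a median of 0.14 (7 higher and 3 lower without N replicate 3). Eif4a1, the main target of CR-31, had 1127, 981 and 908 CPM in N and 1424, 877 and 1271 in KP (0.24 ± 0.25, adjusted p = 0.614), so the types overlapped. The cap-binding protein gene Eif4e (0.30 ± 0.26) and the scaffold Eif4g1 (0.30 ± 0.38) did not pass either. The atypical cap-binding factor Eif4e3 fell, from 4.05, 1.89 and 1.80 CPM in N to 0.179, 0.182 and 0.166 in KP (-3.87 ± 0.55, 0.0172), and Eif2b5 (0.67, 0.111), Eif2s1 (0.66, 0.111) and Eif4a3 (0.59, 0.123) were called higher. Aminoacyl-tRNA synthetases gave 2 of 19 higher, nucleolar ribosome biogenesis genes 1 of 31, unfolded protein response genes 2 higher and 3 lower of 29, heat shock genes 2 and 1 of 20, and enzymes of the TCA cycle 8 and 0 of 29. The higher and lower counts without N replicate 3 were 3 and 0 for synthetases, 0 and 0 for nucleolar genes, 4 and 4 for the unfolded protein response, 3 and 3 for heat shock and 8 and 0 for the TCA cycle. Few of the calls remained whichever library was left out: 1 of the 6 for initiation factors, 0 of the 2 for synthetases, 0 of the 1 for nucleolar genes, 2 of the 5 for the unfolded protein response, 1 of the 3 for heat shock and 1 of the 8 for the TCA cycle.

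**Figure D3:**
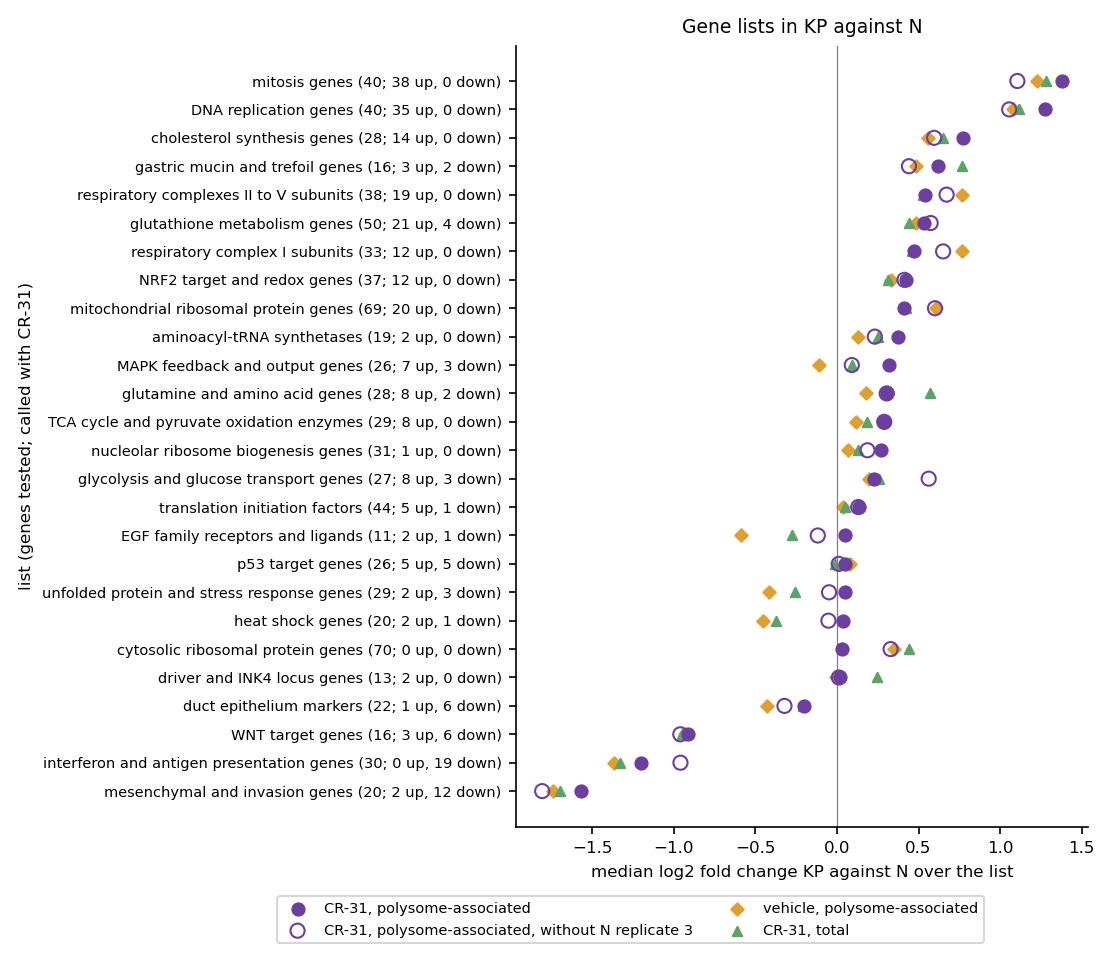
Median log2 fold change of KP against N over each list with at least 10 tested genes, in polysome-associated mRNA with CR-31 (filled purple circles; open circles without N replicate 3), polysome-associated mRNA with vehicle (diamonds) and total mRNA with CR-31 (triangles); labels give the genes tested and those called with CR-31. The cell-cycle lists sit above 1 in all 3 comparisons and the interferon list below -1 with all libraries (at -0.96 with CR-31 without N replicate 3), and the open circles move right of the filled ones for ribosomal and respiratory lists.

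The same comparison in the vehicle libraries, which share no library with it but come from the same numbered cultures, gave 1988 genes higher in KP (17.4%) and 2202 lower (19.3%). Of the 1326 genes higher with CR-31, 954 were also called higher with vehicle, which is 71.9% of the CR-31 calls and 47.99% of the vehicle calls. For the lower genes the number was 1244, or 73.7% and 56.5%. Genes chosen by their vehicle call had the same sign with CR-31 in 93.6% of the higher and 95.7% of the lower. Their median log2 fold change was 0.89 with vehicle and 0.56 with CR-31 in the higher genes, and -1.20 and -0.88 in the lower. Chosen by their CR-31 call instead, the medians with CR-31 and vehicle were 0.89 and 0.95, and -1.34 and -1.27. Across all genes the 2 fold changes were correlated at r = 0.872. Without N replicate 3 the vehicle comparison called 2690 higher and 2734 lower, and the correlation was 0.916.

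**Figure D4:**
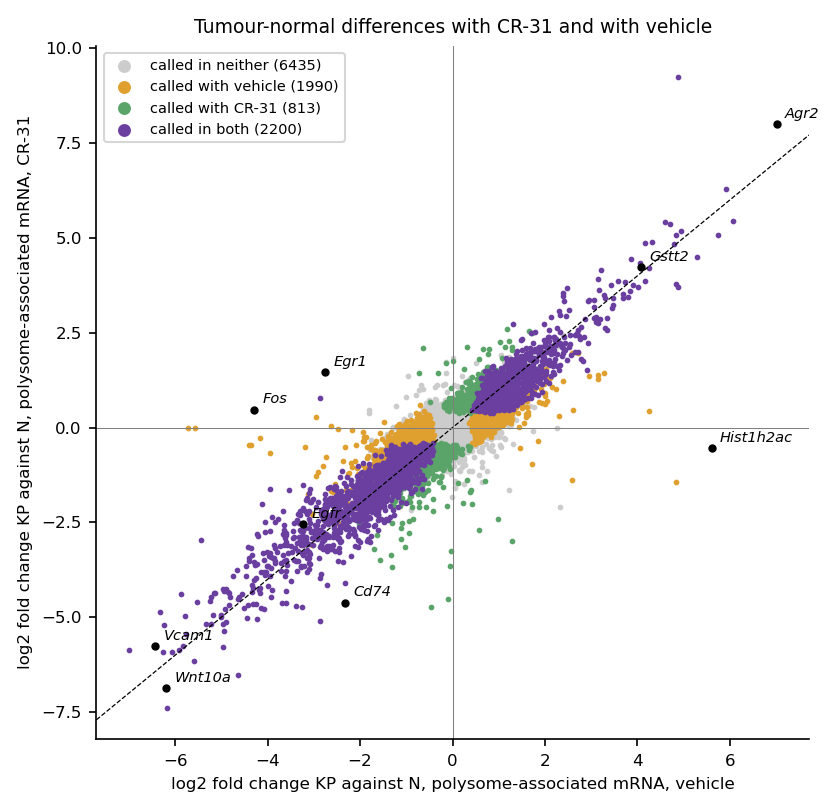
log2 fold change of KP against N in polysome-associated mRNA with vehicle (x) and with CR-31 (y) for 11438 genes, coloured by where each passed an adjusted p under 0.25; the dashed line marks equal values. Most called genes lie along the line, while Egr1 and Fos lie to the left, negative with vehicle and positive with CR-31.

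The difference between the 2 comparisons was tested directly as an interaction of type and treatment. In replicate 2 of each type the vehicle and CR-31 polysome libraries were on different lanes, so lane varied with treatment there. Without a culture term edgeR called 0 genes (0%), with TMM or RLE scaling, with 258 at an unadjusted p under 0.05, and with culture as a replicate block it called 0, with 1623 at an unadjusted p under 0.05. The block was taken up because each culture's deviations were shared by its CR-31 and vehicle libraries. With the block and without N replicate 3, a fit chosen after seeing the data, 3090 genes (27%) were called at 0.25 and 0 at 0.05, the smallest adjusted p being 0.0933. In 2460 of the 3090 the difference between KP and N was smaller in size with CR-31 than with vehicle, and in 630 it was larger. Leaving out any other culture gave 0 or 1 call. The 3090 split by mRNA length: in the shortest of the 4 groups 774 fell and 46 rose relative to vehicle, and in the longest 89 fell and 834 rose.

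Individual genes show what this interaction measured. Kidins220, a scaffold of neurotrophin signalling, was at -1.56 in KP against N with vehicle and -0.71 with CR-31 (log2, without N replicate 3; interaction 0.85 ± 0.14), and the chromatin gene Ash1l at -1.23 and -0.35. In the other direction Mlf2 had 334, 282 and 289 CPM in N and 720.1, 791 and 608 in KP with vehicle, and 404, 361 and 457 and 477, 487 and 491 with CR-31: the types were far apart with vehicle and near each other with CR-31. Fkbp8, an anti-apoptotic mitochondrial chaperone, went from 1.19 with vehicle to 0.32 with CR-31 with all libraries, Bak1, a pro-apoptotic pore protein, from 1.08 to 0.19, and the receptor Il17rc from 1.24 to 0.21. These 4 and Hist1h2ac had the smallest unadjusted p in the unblocked interaction (0.00272 for Mlf2), and each had an adjusted p of 0.999. Among the lists, the block without N replicate 3 called 10 of 33 complex I subunits, 15 of 69 mitochondrial ribosomal proteins and 11 of 50 glutathione genes lower with CR-31 than with vehicle, against 0, 2 and 1 higher. Over all genes that fit called 15.9% lower and 11.1% higher, and in the shortest of the 4 length groups, which held 31 of the 33, 57 of the 69 and 32 of the 50, it called 27.1% lower, so these lists lay near the share of genes of their length. Nucleolar ribosome biogenesis genes went the other way, with 10 of 31 higher and 4 lower, and so did the EGF family, with 4 of 11 higher and 0 lower.

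Egr1 and Zfp36, immediate early genes that respond within minutes to a stimulus, differed in direction between the treatments in the libraries as labelled. Egr1 was called higher in KP with CR-31, with 151, 151 and 107 CPM in N and 478, 398 and 256 in KP (1.47 ± 0.29, adjusted p = 0.0312), and lower with vehicle, with 65.3, 135 and 2538 CPM in N and 248, 85.5 and 72.8 in KP (-2.75, adjusted p = 0.188). The vehicle library of N replicate 3 was the only one above 1000 CPM. Zfp36, which encodes an mRNA-decay protein, was the 1 other gene called in opposite directions (0.78 with CR-31, -2.86 with vehicle), and its vehicle values in N were 47.6, 54.0 and 1386 CPM. In total mRNA the high library of N replicate 3 was instead the one labelled CR-31: Egr1 stood there at 4375 CPM, against 139 in its total library labelled vehicle. Fos had 49.2, 31.9 and 1716 CPM in N polysomes with vehicle and 109, 41 and 50.7 with CR-31, and in KP 41.2, 25.6 and 25.3 and 93.9, 114 and 70.7. Without N replicate 3 the vehicle log2 fold changes of Egr1 and Zfp36 were 0.44 and 0.43 (not called), and with CR-31 they were 1.32 and 0.72, both called.

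**Figure D5:**
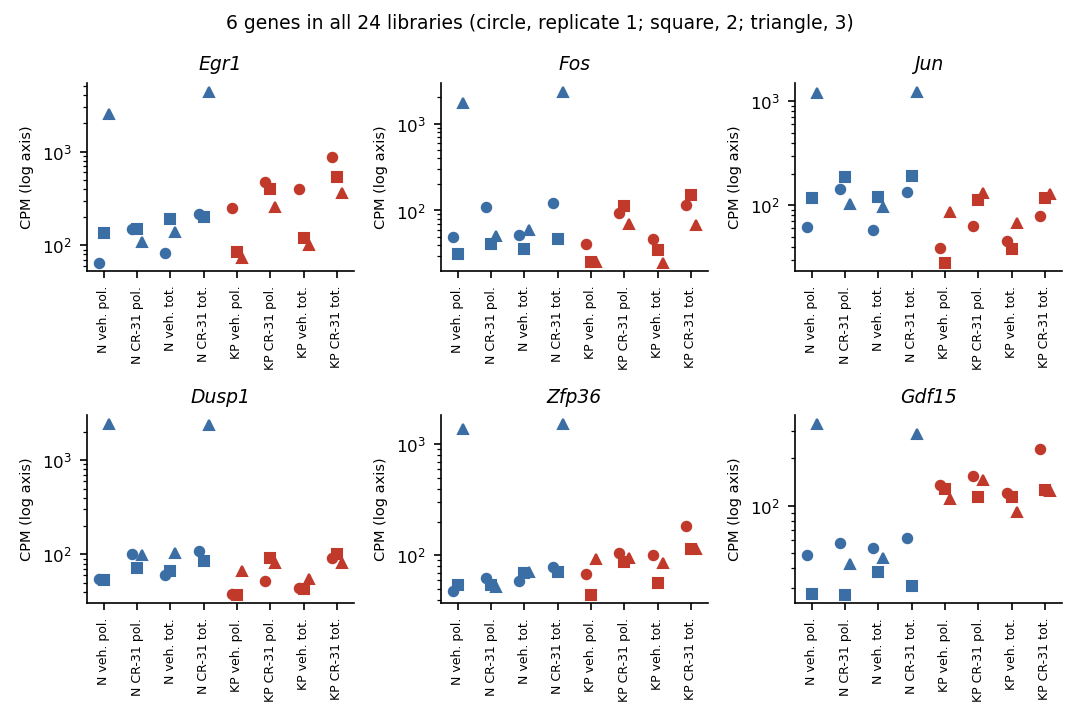
TMM-scaled CPM (log axis) of 6 genes in all 24 libraries, N in blue and KP in red, by treatment (veh., vehicle) and fraction (pol., polysome-associated; tot., total mRNA). Triangles of N replicate 3 stand above the other N libraries in polysome-associated mRNA labelled vehicle and in total mRNA labelled CR-31.

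In total mRNA of the same CR-31 lysates, 1406 genes were called higher in KP (12.3%) and 1680 lower (14.7%), and 874 and 1060 without N replicate 3. Of the polysome calls, 909 of the 1326 higher genes were also called higher in total mRNA, 68.6% of the polysome and 64.7% of the total calls, and 1214 of the 1687 lower genes, 72.0% and 72.3%. None was called in the opposite direction. Medians of the lists in total mRNA were close to those on polysomes, 1.11 against 1.27 for DNA replication and -1.33 against -1.20 for interferon and antigen presentation, while cytosolic ribosomal proteins were at 0.44 in total and 0.030 on polysomes, with 30 of 70 called higher in total mRNA. The medians of that list without N replicate 3 were 0.41 in total mRNA and 0.33 on polysomes. Translational efficiency, the polysome value relative to total mRNA of the same lysate, was compared between types with lysate as a block. No gene was called by edgeR (0%), with TMM or RLE scaling, with 332 at an unadjusted p under 0.05 and a smallest adjusted p of 0.838; without N replicate 3, whose polysome and total labels do not pair, the count stayed 0, with 135 and 0.297. The 5 genes with the smallest p were Cdk5r2 (-1.89 ± 0.54 on the log2 scale), Zfp454 (1.67 ± 0.47), Usp17ld (-1.92 ± 0.51), Myo7a (-0.93 ± 0.25) and Sec16a (-1.08 ± 0.31). These values are from the fit with all libraries. That fit includes N replicate 3 and KP replicate 1, whose total CR-31 library stood apart.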

How the data were processed

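Polysome-associated and total mRNA of N and KP organoids, with vehicle or CR-31, was sequenced in 24 libraries, 3 per group. Per the labels and the methods, reads were aligned with HISAT2 and sorted with SAMtools; the build named is hg38 (GRCh38), whereas the genes are mouse RefSeq genes, so file coordinates were not used. The authors deposited raw read counts per gene and RPKM values. Counts were tested; RPKM served for marker levels and, through the count-to-RPKM ratio, relative mRNA length.

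Of 19895 entries, 1042 hold several symbols and were left out. Genes with a count above 0 in all 24 libraries (11438) were tested with edgeR 4.0.16 (R 4.3.3; TMM factors, glmQLFit and glmQLFTest, Benjamini-Hochberg adjustment) and called at an adjusted p under 0.25, the limit that the study set on the adjusted p in another tool together with effect-size filters not used here. The 6 libraries, not all groups, entered each comparison. Interaction and translational efficiency used 12. The script was tested on simulated counts. Alternatives were RLE and upper-quartile scaling, DESeq2 1.42.0, other filters, a 12-library model, replicate blocks and leaving out each library. Named genes were the 15 most raised and 15 most lowered with a mean of at least 5 CPM, genes the study names, up to 3 called members per list and direction, the 5 smallest p of the interaction and of translational efficiency, and genes at 0 in one type; promoter examples, the interaction examples Kidins220 and Ash1l, and Fos were chosen after their values were seen. The members and lists were chosen with earlier results of these data known. CR-31 and vehicle libraries of a culture share a number and deviated together (r = 0.538 to 0.871), so culture was used as a block for the interaction. Figures used matplotlib 3.10.9. Some genes and 1 allele are not reported here. No column of the authors' own comparisons was used.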

Additional observations from a re-analysis of the deposited data

How the results depend on the processing

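The 3013 calls with CR-31 were 3028 with RLE, 3065 with upper-quartile scaling, 3114 with DESeq2, 3244 and 3204 with other filters and 2855 in a 12-library model. Under upper-quartile scaling 38.3% of the calls were higher in KP and the median of all genes shifted to -0.068. Leaving out 1 library gave 915 to 3753 calls with CR-31, 1618 to 5424 with vehicle, 915 to 3713 in total mRNA, and 0 in each fit for the interaction without a block and for translational efficiency. Without KP replicate 1, the fewest calls, 55 of the named genes lost theirs. The replicate block shared by N and KP gave 2744, 3621 and 2732 calls with CR-31, vehicle and total mRNA; same-numbered N and KP libraries deviated with r = 0.186, -0.145 and 0.151, so the numbers do not pair the types, and not every N library correlated best with its own number. Culture as a replicate block called 0 genes in the interaction, and 3090 without N replicate 3 as well, a fit added after seeing the data; the cause was not tested. With vehicle, the called log2 fold changes of Egr1 (-2.75) and Zfp36 (-2.86) reversed to 0.44 and 0.43 without N replicate 3. With CR-31 and 1 library left out, the following genes, none of them called, reversed: Hist1h2ac ranged from -1.90 to 0.44 (without N replicate 3), Slc2a1 from -0.12 (without N replicate 2) to 0.56, with -0.044 without N replicate 3 and -0.020 without KP replicate 2, Sec16a from -0.035 (without N replicate 3) to 0.32, with -0.034 without KP replicate 2, and Usp17ld from -0.30 (without KP replicate 1) to 3.00. The cause was not tested. The genes listed were among the named genes. Of all genes called with CR-31, 1326 of the 1326 higher and 1686 of the 1687 lower kept their sign in every such fit. Genes under 1 CPM rest on few counts in the shallowest library, N replicate 3.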

Other observations

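Genes next to Gstt2 were examined after its values were seen. In RefSeq's order on mouse chromosome 10, Ddt (D-dopachrome tautomerase), Gstt3 and Gstt1 precede it and Mif and Smarcb1 follow it. Ddt had 56.9 ± 4.48 CPM (SD, n = 3) in N and 269 ± 40.2 in KP with CR-31, and its log2 fold change was 2.24 (edgeR quasi-likelihood test, adjusted p = 0.00645). Gstt3 (1.66, adjusted p = 0.0114) and Gstt1 (1.75, 0.0175) were also called higher, as was Smarcb1 by a smaller amount (0.44, 0.229). Mif was at 0.56 (0.454) and Cabin1, on the far side of Ddt, at 0.29 (0.586). Lower were the matrix metalloproteinase gene Mmp11, beyond Smarcb1, at -2.32 (0.0397), Derl3, between Mif and Smarcb1, at -1.28 (0.206), and Susd2, beyond Cabin1, at -2.40 (0.102); the last pair stood near or under 1 CPM. With vehicle the values were 2.32 for Ddt, 1.96 for Gstt3, 1.80 for Gstt1 and 4.08 for Gstt2.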
